A study of Mus musculus with 12 samples.

Results

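The genes described here encode 10 neuropeptide receptors outside the opioid system, out of 22180 annotated genes on the array: the neuropeptide Y receptors Npy1r, Npy2r and Npy5r, the somatostatin receptors Sstr1 and Sstr2, the cholecystokinin receptor Cckbr, the tachykinin receptors Tacr1 and Tacr3, the corticotropin-releasing hormone receptor Crhr1 and the neurotensin receptor Ntsr2. They were chosen by name, and a gene's value is that of its brightest probeset with a single gene symbol in the probe annotation. Each of the 10 genes had 1 such probeset, and no value of any of them lay under the floor of 1 that was set before taking log2.

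RNA came from micropunches of the nucleus accumbens (NAC), core and shell together, of adult outbred hsd:ICR female mice. The postpartum group held 6 lactating mice on postpartum day 7, each with a litter set to 11 pups after mating with a breeder male, and the virgin group held 6 age-matched females in diestrus that had been housed with other females over the mating period. All mice were then housed singly, so the postpartum group differs from the virgin group by mating, pregnancy, parturition, lactation and contact with pups together. Each mouse was measured on its own GeneChip Mouse Gene 2.0 ST array, and the comparison asks which receptor transcripts differ in the NAC of mothers.

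Neuropeptides are cut from larger precursor proteins, released from dense-core vesicles and sensed by receptors that couple to G proteins. NPY receptors Y1, Y2 and Y5, and the somatostatin receptors, couple mainly to Gi/o and lower cyclic AMP, whereas the tachykinin receptors and CCK-B receptor couple mainly to Gq and the CRH receptor mainly to Gs. In the NAC, neuropeptide Y and somatostatin are made by a class of local interneurons, substance P by medium spiny neurons, the projection neurons of the striatum, and much cholecystokinin by afferents and cortical neurons. Transcripts measured in a punch come from cell bodies inside it, so receptors that afferents carry to their endings in the NAC are largely not sampled. In bulk tissue, fewer cells of a type and less RNA per cell cannot be told apart.

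Sequences around the start of 4 receptor genes are shown because results given below concern these genes. Npy1r and Npy5r are neighbours on chromosome 8, transcribed away from each other with 0 annotated genes between them. The difference between their values shifted between the groups, for a pair chosen with earlier results of these data known. Tacr3 and Ntsr2 took part in the strongest relations between receptors and other transcripts, of which those of Tacr3 with marker scores did not pass after adjustment. The sequences are from RefSeq (GRCm38.p6), which held a promoter entry for 9 of the 10 receptors, and run 5′ to 3′ on the strand of the gene over 250 bases before to 50 bases after its start. They lie at chr8:66697172-66697471 (Npy1r, plus strand), chr8:66688045-66688344 (Npy5r, minus strand), chr3:134828757-134829056 (Tacr3) and chr12:16653220-16653519 (Ntsr2). The start is that of a transcript in the RefSeq table. It coincides with the outer end of the gene record for Npy5r and Tacr3 but lies 273 bases inside the record for Npy1r and 27 bases inside it for Ntsr2, so that the whole Npy1r window falls within its gene record. Capitals mark a match to a motif that was searched on both strands.
Npy1r: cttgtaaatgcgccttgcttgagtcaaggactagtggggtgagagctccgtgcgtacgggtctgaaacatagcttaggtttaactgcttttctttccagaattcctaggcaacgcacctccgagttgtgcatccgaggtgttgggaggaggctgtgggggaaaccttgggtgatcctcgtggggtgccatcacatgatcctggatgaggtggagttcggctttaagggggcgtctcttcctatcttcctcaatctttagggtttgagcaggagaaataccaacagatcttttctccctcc
Npy5r: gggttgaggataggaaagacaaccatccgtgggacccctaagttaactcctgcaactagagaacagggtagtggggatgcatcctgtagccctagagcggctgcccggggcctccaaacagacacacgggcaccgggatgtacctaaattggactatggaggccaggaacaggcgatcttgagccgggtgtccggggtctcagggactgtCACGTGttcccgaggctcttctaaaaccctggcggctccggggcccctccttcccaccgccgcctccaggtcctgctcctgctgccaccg
Tacr3: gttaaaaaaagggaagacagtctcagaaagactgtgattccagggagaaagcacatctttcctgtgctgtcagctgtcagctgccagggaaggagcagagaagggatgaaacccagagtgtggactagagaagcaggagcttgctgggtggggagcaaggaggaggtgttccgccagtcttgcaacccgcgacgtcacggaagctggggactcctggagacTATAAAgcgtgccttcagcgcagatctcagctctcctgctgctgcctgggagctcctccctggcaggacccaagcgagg
Ntsr2: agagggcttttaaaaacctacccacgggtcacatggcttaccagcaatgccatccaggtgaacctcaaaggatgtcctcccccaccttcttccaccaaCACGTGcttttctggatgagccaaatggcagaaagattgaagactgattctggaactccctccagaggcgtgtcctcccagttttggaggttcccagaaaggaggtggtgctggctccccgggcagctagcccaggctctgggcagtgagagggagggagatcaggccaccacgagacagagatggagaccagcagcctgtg
The motifs searched were the cyclic AMP response element CRE (TGACGTCA), the E-box CACGTG, the TATA box (TATAAA) and the GC box (GGGCGG). The Npy1r sequence held none of them. The Npy5r sequence held an E-box at position -40 from the start, the Ntsr2 sequence an E-box at position -152, and the Tacr3 sequence a TATA box at position -29. Of 32851 mouse promoters of the same length, 7.15% held the E-box, 13.6% the TATA box, 1.79% the CRE and 35.7% the GC box. A match describes these letters and is no measure of a bound factor.

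Array medians were 153 to 158.07 in postpartum and 154.71 to 164.98 in virgin arrays, and any 2 arrays had a Spearman correlation of 0.976 to 0.990 across probesets. Marker genes showed that the punches held striatal tissue but do not locate it within the striatum. Penk, a medium spiny neuron marker, read 5162 to 7062 in postpartum and 6488 to 7651 in virgin arrays. Cortical and septal transcripts were present too. The cortical marker Slc17a7 read 3231 to 5649 in postpartum and 3051 to 4944 in virgin arrays. The 9 measured markers of medium spiny neurons summed to an intensity of 24284 to 30930 in postpartum and 28467 to 33155 in virgin arrays, and all 9 had a lower mean in postpartum mice (median log2 -0.18), Rgs9 being the 1 that fell at p under 0.01 (call lost in 8 of the 12 fits that left out 1 array). At p under 0.03, 3 of these 9 were lower in postpartum mice (Rgs9, Penk and Drd1), where 2.89% of all annotated genes were. Penk had a log2 fold change of -0.23 (adjusted p = 0.453 in limma) and Drd1 of -0.34 (adjusted p = 0.462 in limma). The 9 cortical markers summed to 7604 to 12205 in postpartum and 7786 to 10551 in virgin arrays (median log2 0.13, 7 positive and 2 negative). The 1 cortical marker at p under 0.03 was Cux2, which was lower in postpartum mice (log2 fold change -0.15, adjusted p = 0.482 in limma). Among markers of other cells, the interneuron marker Calb2 rose (log2 fold change 0.58, adjusted p = 0.342 in limma), a call kept in all 12 fits that left out 1 array. It was the 1 of 10 measured interneuron markers at p under 0.01. The 10 had log2 fold changes of -0.20 to 0.58 (median 0.075, 7 positive and 3 negative). The oligodendrocyte marker Opalin fell (log2 fold change -0.47, adjusted p = 0.427 in limma), a call lost in 10 of the 12. It was the 1 of 6 measured oligodendrocyte markers at p under 0.01 (median log2 -0.12, 1 positive and 5 negative). Of the markers of astrocytes, microglia, endothelium, choroid plexus and septum, 0 passed p under 0.01, a threshold that 2.8% of all annotated genes passed. A pair of arrays stood apart by the 4 measured Zic genes, which mark the neighbouring septum. Zic1 read 1980 on postpartum replicate 4, against 681 to 1076 on the other postpartum arrays. On virgin replicate 3 it read 1245, against 812 to 1052 on the other virgin arrays. The receptor results that rest on these arrays are given with and without them, and the part of tissue makeup in the receptor values was not tested beyond that and the marker scores used as covariates.

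Of the 10 receptor genes, 0 passed an unadjusted limma p under 0.01, where 2.8% of all annotated genes did (1.72% higher and 1.08% lower in postpartum mice). The split of calls over all genes depended on the scaling, with 2.87% higher and 0.428% lower after median centring of the arrays, and 2.94% higher and 1.25% lower on linear intensities. This is the threshold of the study, and rose and fell are used here only of genes that pass it. At the second threshold of the study, p under 0.03, 1 receptor passed (Npy1r, higher in postpartum mice), beside 6.56% of all genes (3.68% higher and 2.89% lower, and 6.16% and 1.38% with arrays centred on their median). At this threshold 2 receptors passed with the cortical marker score as a covariate (5.65% of all genes), and 0 with the medium spiny neuron score as a covariate (4.98%). The log2 fold changes were positive for 7 receptors and negative for 3, with a median of 0.046, compared to 47.9% positive and a median of -0.0052 over all genes. In 0 of 10 receptors did the 6 postpartum arrays lie wholly to one side of the 6 virgin arrays, as they did for 1.06% of all genes. Across all 41345 probesets, 511 were higher and 440 lower at p under 0.01, and 0 passed an adjusted p under 0.05 in limma (Benjamini-Hochberg, smallest 0.106), with 3685 at an unadjusted p under 0.05.

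**Figure D1:**
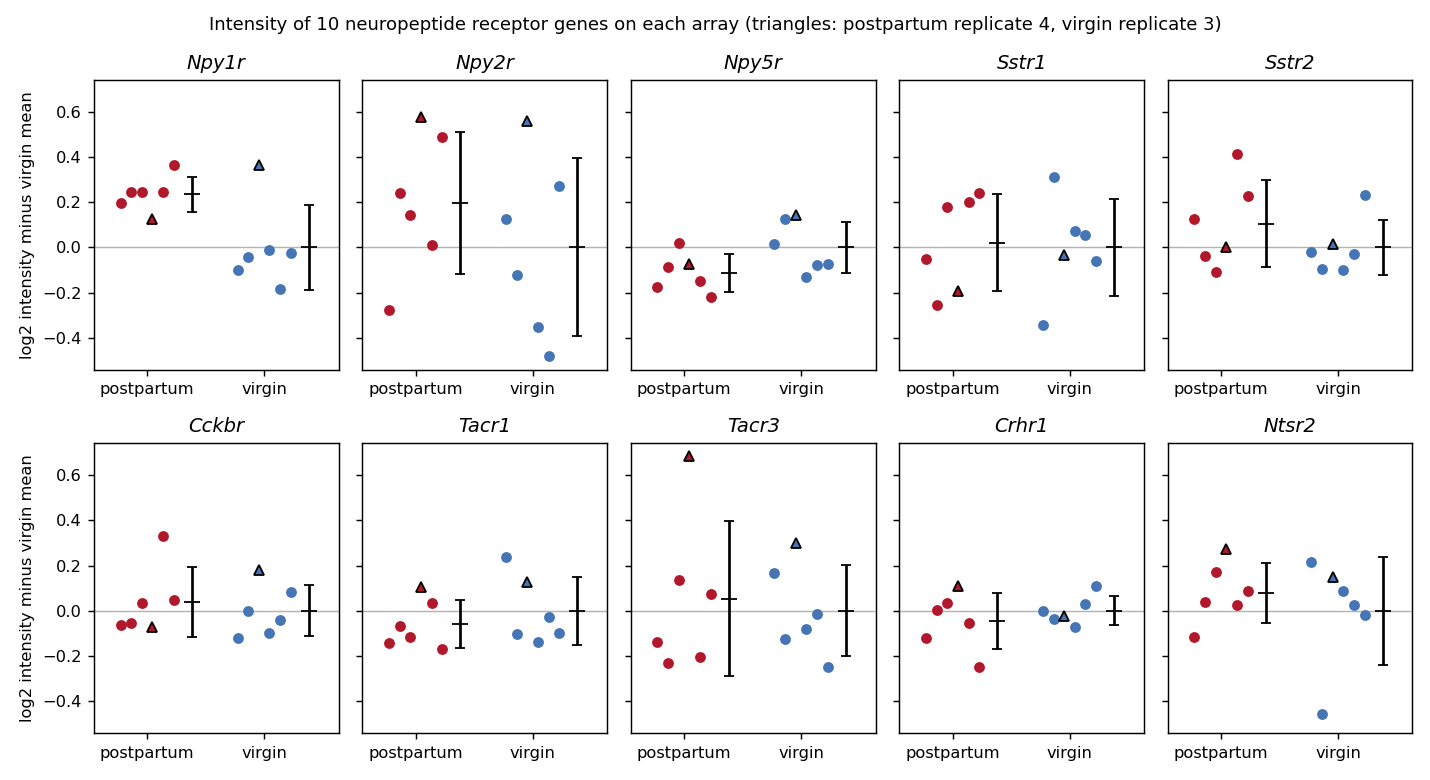
Log2 intensity of each of the 10 receptor genes on each array, minus the mean of the virgin arrays (y axis), for 6 postpartum arrays (red, left) and 6 virgin arrays (blue, right), with the group mean and SD as a bar. Triangles mark postpartum replicate 4, the highest array for Tacr3 (351), and virgin replicate 3, the highest array for Npy1r (912).

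Among the NPY receptors, Npy1r encodes the Y1 receptor, a postsynaptic receptor of NPY (probeset 17501544). Its intensity on postpartum arrays had a lowest value of 771, a median of 838 and a highest value of 910.2, against 624, 691 and 912 on virgin arrays. The 6 postpartum arrays lay together above the other 5 virgin arrays, which reached 701, and virgin replicate 3 (912) lay above all of them. The mean ± SD over 6 mice was 835 ± 45.4 in the postpartum group and 713 ± 101 in the virgin group, and the log2 fold change was 0.24 (SE 0.083, 95% confidence interval 0.055 to 0.42). It had a limma p of 0.0150, an adjusted p of 0.457 and an exact permutation p of 0.0216. Without virgin replicate 3 the log2 fold change was 0.31 (SE 0.053, limma p = 0.000120, adjusted p = 0.233, exact permutation p = 0.00216), where 2.77% of all genes passed p under 0.01. All 6 postpartum arrays then lay above the remaining 5 virgin arrays, as they did for 1.25% of all annotated genes. Virgin replicate 3 was the only virgin array above any postpartum array, so leaving it out fixed this separation in advance. The shares over all genes leave out the same array for every gene, not the outlying array of each, so they are no matched rate. With postpartum replicate 4 left out too it was 0.33 (SE 0.051, limma p = 8.18e-05, adjusted p = 0.144, exact permutation p = 0.00794), where 3.39% of all genes passed. The choice to leave out both arrays was made after their values had been seen. The exact p of 0.00216 and of 0.00794 were each the smallest possible with the arrays that remained. With all arrays kept, Npy1r passed p under 0.01 with a variance trend in limma (3.37% of all genes) and with array weights (3.28%). Without virgin replicate 5, virgin replicate 1 or postpartum replicate 6 it missed p under 0.03 (log2 fold change 0.20, 0.22 and 0.21).

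Npy2r encodes the Y2 receptor, which acts largely as a presynaptic autoreceptor on NPY neurons (probeset 17406233). It read 199, 275 and 359 (lowest, median and highest) on postpartum arrays, against 172, 242 and 355 on virgin arrays, and the groups overlapped over almost their whole range. The means were 281 ± 59.6 in postpartum and 249 ± 68.6 in virgin mice, a log2 fold change of 0.20 (SE 0.19, limma p = 0.324, exact permutation p = 0.351). Npy2r had the widest spread of the 10 receptors. Its SD within groups was 0.36 on the log2 scale, which lay at percentile 98.4 of 3858 genes of like level. The 95% confidence interval of its log2 fold change was -0.22 to 0.61. The log2 fold change was 0.10 without virgin replicate 5 and 0.31 without virgin replicate 3, and 0.35 with the cortical and 0.45 with the medium spiny neuron score as a covariate, with a limma p above 0.05 each time.

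Npy5r encodes the Y5 receptor, which also binds NPY and peptide YY and is best known for its part in feeding (probeset 17509706). It read 284, 305 and 336 on postpartum arrays, against 302, 324 and 366 on virgin arrays. Of the 6 postpartum arrays, 1 lay above the virgin median, 3 lay below all virgin arrays, and 2 virgin arrays lay above all postpartum arrays. The means were 306 ± 18.4 in postpartum and 332 ± 26.5 in virgin mice, a log2 fold change of -0.11 (SE 0.062, 95% confidence interval -0.25 to 0.022, limma p = 0.0919, exact permutation p = 0.0801). The direction was opposite to that of Npy1r. With the cortical or medium spiny neuron score as a covariate the log2 fold change was -0.055 or -0.064.

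The difference between receptors of one ligand family was tested within each array. This removes a factor common to a whole array, but not scaling that depends on intensity. The ratio of Npy1r to Npy5r intensity was 2.76, 2.69, 2.50, 2.45, 2.81 and 3.20 on postpartum arrays 1 to 6, against 1.97, 1.91, 2.49, 2.32, 1.99 and 2.21 on virgin arrays 1 to 6. Since the probes of the genes differ in brightness, only the difference between the groups has a meaning here, not the ratio itself. The ratio averaged 2.74 ± 0.270 (SD) on the 6 postpartum arrays and 2.15 ± 0.231 on the 6 virgin arrays. On the log2 scale the difference between the groups was 0.35 (exact permutation p = 0.00433, adjusted p = 0.0216 over 5 receptor pairs). The pairs were chosen with earlier results of these data known. Npy1r and Npy5r had the highest and the lowest log2 fold change of the 10 receptors. The adjustment over 5 pairs does not cover that choice. Of the 6 postpartum arrays, 5 exceeded every virgin array and all exceeded the virgin median, and postpartum replicate 4 (2.45) lay below virgin replicate 3 (2.49). Leaving out each array in turn gave differences of 0.30 to 0.39 (adjusted exact p of 0.0108 to 0.0433), and leaving out both of those arrays gave 0.42 (adjusted exact p = 0.0397). The 0.0108 and the 0.0397 rest on raw p values that were the smallest possible with the arrays that remained.

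**Figure D2:**
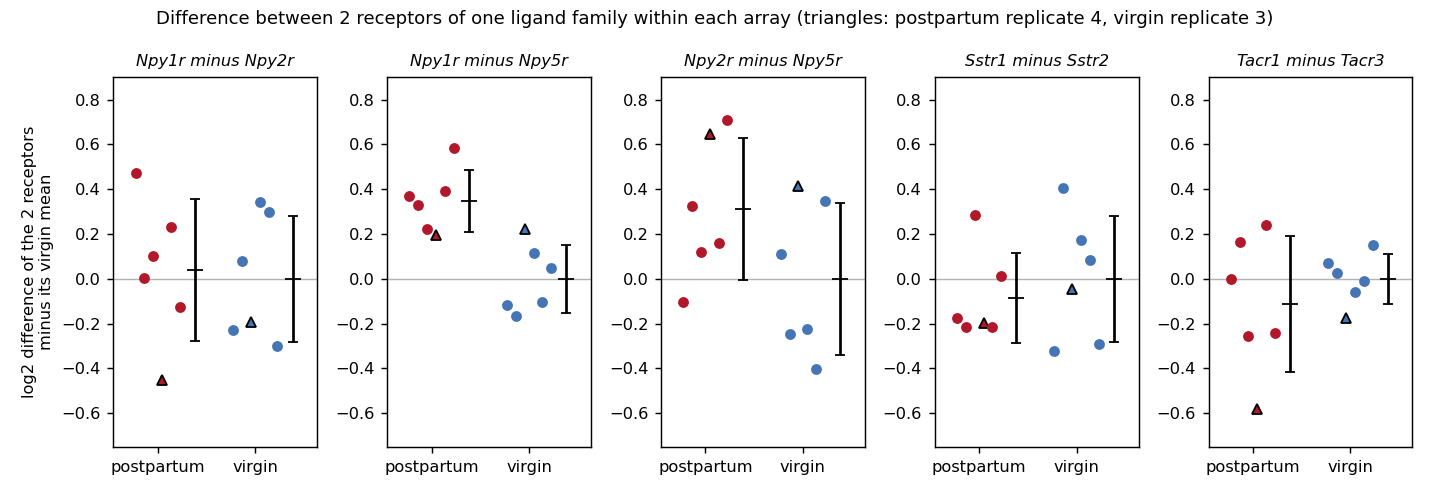
Difference of log2 intensities between receptors of one ligand family on each array, minus the virgin mean of that difference (y axis), for postpartum arrays (red, left) and virgin arrays (blue, right), with group mean and SD. Of the 5 receptor pairs, Npy1r minus Npy5r was shifted between groups by 0.35, with 5 of 6 postpartum arrays above all virgin arrays. The pairs were chosen with earlier results of these data known.

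The other 4 pairs did not pass the test. Npy2r minus Npy5r differed by 0.31 between groups (exact p = 0.130, adjusted p = 0.325), Npy1r minus Npy2r by 0.039 (exact p = 0.827), Sstr1 minus Sstr2 by -0.084 (exact p = 0.561) and Tacr1 minus Tacr3 by -0.11 (exact p = 0.424). With wide spreads such as that of Npy2r, a miss says only that no difference was resolved.

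Sstr1 and Sstr2 encode inhibitory receptors of somatostatin, of which Sstr2 is the main target of stable somatostatin analogs. Sstr1 read 216, 269 and 303 on postpartum arrays, against 202, 259 and 319 on virgin arrays. The means were 263 ± 38.5 in postpartum and 259 ± 37.9 in virgin mice (log2 fold change 0.020, 95% confidence interval -0.24 to 0.28, limma p = 0.867, exact permutation p = 0.879). Sstr2 read 757, 854 and 1088 on postpartum arrays, against 762, 802 and 958 on virgin arrays. The means were 884 ± 122 in postpartum and 819 ± 72.3 in virgin mice (log2 fold change 0.10, 95% confidence interval -0.094 to 0.30, limma p = 0.275, exact permutation p = 0.316). The Sstr2 log2 fold change was 0.042 without postpartum replicate 5, 0.041 with the cortical score and 0.013 with the medium spiny neuron score as a covariate. The groups overlapped for both genes, and the intervals still allow a change of either sign.

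Cckbr encodes the CCK-B receptor, the main cholecystokinin receptor of the forebrain. It read 835, 871 and 1103 on postpartum arrays, against 805.5, 863 and 992 on virgin arrays. The means were 904 ± 102 in postpartum and 879 ± 70.5 in virgin mice (log2 fold change 0.038, 95% confidence interval -0.13 to 0.21, limma p = 0.630, exact permutation p = 0.645). The highest postpartum value, 1103, came from replicate 5, which was also the highest for Sstr2 (1088).

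Among the tachykinin receptors, Tacr1 encodes the NK1 receptor of substance P, found in the striatum on cholinergic and somatostatin interneurons, and Tacr3 the NK3 receptor of neurokinin B. Tacr1 read 364, 383 and 439 on postpartum arrays, against 371, 391 and 482 on virgin arrays. The means were 393 ± 29.6 in postpartum and 410.3 ± 44.0 in virgin mice (log2 fold change -0.060, 95% confidence interval -0.22 to 0.11, limma p = 0.446, exact permutation p = 0.439). Tacr3 read 186, 214 and 351 on postpartum arrays, against 184, 211 and 269 on virgin arrays. Its means were 233 ± 62.0 in postpartum and 220.4 ± 31.5 in virgin mice (log2 fold change 0.053, 95% confidence interval -0.28 to 0.39, limma p = 0.736, exact permutation p = 0.775). The highest postpartum value was that of replicate 4, and without that array the log2 fold change was -0.073. With the cortical marker score as a covariate it was 0.26 (SE 0.095, adjusted p = 0.529 in limma).

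Crhr1, encoding the main CRH receptor of the brain, read 260.1, 304 and 333 on postpartum arrays, against 293, 306 and 333 on virgin arrays. The means were 300.1 ± 25.5 in postpartum and 309 ± 13.7 in virgin mice (log2 fold change -0.045, 95% confidence interval -0.18 to 0.088, limma p = 0.472, exact permutation p = 0.465). Crhr1 and Npy5r had the narrowest intervals of the 10 receptors. Ntsr2, encoding the low-affinity neurotensin receptor that is also found in astrocytes, read 1435, 1624 and 1878 on postpartum arrays, against 1133, 1619 and 1805 on virgin arrays. The means were 1649 ± 152 in postpartum and 1572 ± 236 in virgin mice (log2 fold change 0.079, 95% confidence interval -0.15 to 0.31, limma p = 0.473, exact permutation p = 0.571). The lowest of the 12 values was virgin replicate 2, without which the log2 fold change was -0.012. With the cortical or medium spiny neuron score as a covariate it was 0.15 or 0.24.

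**Figure D3:**
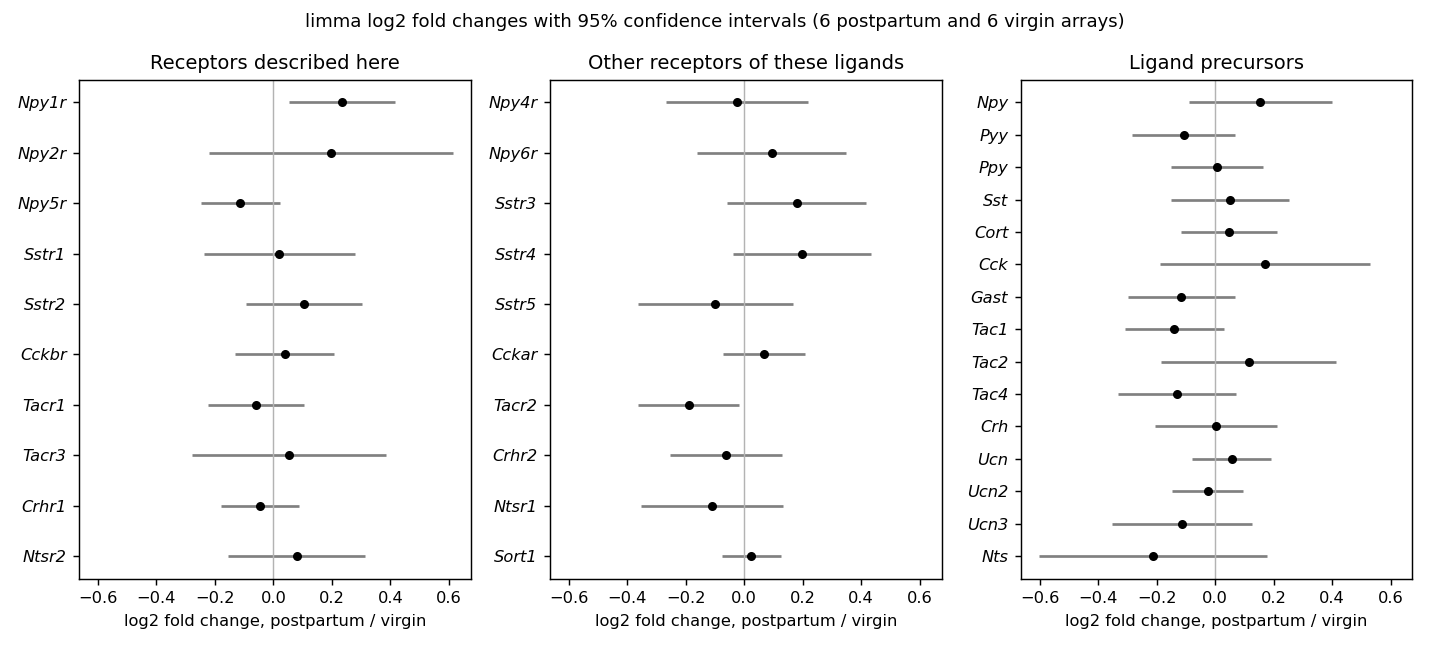
Limma log2 fold change, postpartum over virgin (x axis), with its 95% confidence interval for the 10 receptors (left), 10 other receptors of the same ligands (middle) and 15 ligand precursors (right). The interval of Npy1r, 0.055 to 0.42, is the only 1 of the 10 receptors that leaves out 0. Among the other receptors of the same ligands, the interval of Tacr2, -0.36 to -0.017, also leaves out 0.

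Other receptors for these ligands and the ligand precursors were read from the same fit. Of 10 other receptors of the same families, 0 passed p under 0.01 (log2 fold changes of -0.19 to 0.20, 5 positive and 5 negative). Of 15 ligand precursor genes, 0 passed (log2 fold changes of -0.21 to 0.17, 8 positive and 7 negative). Among the precursors, Npy averaged 2634 ± 430.4 in postpartum and 2347 ± 222 in virgin mice (log2 fold change 0.15, adjusted p = 0.715). Of 13 measured peptide-processing enzymes, 0 passed. In lists this short, a count of 0 cannot be told apart from the 2.8% of all annotated genes.

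Among 38 other neuropeptide receptors that were measured, 3 passed p under 0.01, beside the 2.8% of all annotated genes. Qrfpr, the receptor of the RFamide peptide QRFP, rose and averaged 200.1 ± 25.7 in postpartum and 155 ± 18.2 in virgin mice (log2 fold change 0.37, adjusted p = 0.367 in limma). Brs3, an orphan receptor of the bombesin family, fell to 83.5 ± 9.39 in postpartum, against 103 ± 6.99 in virgin mice (log2 fold change -0.30, adjusted p = 0.342 in limma), a probeset dimmer than the median of every array. Gpr83, an orphan-type receptor abundant in the striatum, fell to 1248 ± 148 in postpartum, against 1549.7 ± 154 in virgin mice (log2 fold change -0.32, adjusted p = 0.382 in limma), a call lost in 7 of the 12 fits that left out 1 array (limma p up to 0.0128). Of 19 measured G protein and arrestin genes, 1 passed, Gnaz, which encodes the Gz alpha subunit: it rose and averaged 986 ± 51.8 in postpartum and 879 ± 39.0 in virgin mice (log2 fold change 0.16, adjusted p = 0.394 in limma), a call lost in 5 of the 12 (limma p up to 0.0140). 

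How the receptors vary from mouse to mouse was read from log2 values with each group's mean subtracted, over 12 arrays, with permutation within groups. In 45 pairs of receptors, 0 passed an adjusted p under 0.05 by Pearson's r (smallest 0.468). By rank, 1 pair passed, Tacr3 and Ntsr2 (Spearman's rho 0.83, permutation p = 0.00107, adjusted p = 0.0481), while its r was 0.60 (adjusted permutation p = 0.468). Its r was 0.86 without the 2 arrays farthest from the median of Ntsr2 (postpartum replicate 1 and virgin replicate 2). These were picked by Ntsr2 alone, so postpartum replicate 4, the highest array for Tacr3, stayed in. Without postpartum replicate 4 and virgin replicate 3 the pair had an r of 0.51 and a rho of 0.75. The highest r was that of Sstr2 and Cckbr (0.69, adjusted permutation p = 0.468, and 0.52 without the 2 arrays farthest from the median of Cckbr).

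Of 10 pairs of a receptor and its ligand precursor, 1 passed: Ntsr2 and Nts, the neurotensin precursor. Pearson's r was 0.76 (permutation p = 0.00063, adjusted p = 0.0063), and Spearman's rho was 0.81 (permutation p = 0.00049, adjusted p = 0.0049). Nts read 214, 252 and 317 (lowest, median and highest) on postpartum arrays, against 219, 298 and 408 on virgin arrays. Within the postpartum group r was 0.96 (exact permutation p = 0.00833, n = 6) and within the virgin group 0.72 (exact permutation p = 0.0278, n = 6). Without the 2 arrays farthest from the median of Nts r was 0.69, without postpartum replicate 4 and virgin replicate 3 it was 0.71, and leaving out any 1 array gave 0.72 to 0.83. The pair shares the array, so hybridisation and tissue makeup are common to both values, and their part in the relation was not tested.

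Tacr3 was set against scores of 9 cell marker lists, with all 10 receptors in a family of 90 relations, chosen after values had been seen. With the cortical score r was -0.86 and rho -0.73 (permutation p = 0.0013 and 0.00819), with an adjusted p of 0.117 for r and 0.295 for rho. Leaving out the 2 arrays farthest from the median of that score (postpartum replicate 4 and virgin replicate 6) gave an r of -0.73. Postpartum replicate 4 and virgin replicate 3 had the lowest cortical scores and the highest Tacr3 values of the 12 arrays, and without this pair of arrays r was -0.61 and rho -0.54. Not every cortical marker was low on virgin replicate 3, where Fezf2 read 1077, against 276 to 498 on the other virgin arrays. With the septal score r was 0.83 (adjusted permutation p = 0.226), but 0.23 without postpartum replicate 4 and virgin replicate 3, so that relation rests on those arrays. No relation of the 90 passed after adjustment.

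**Figure D4:**
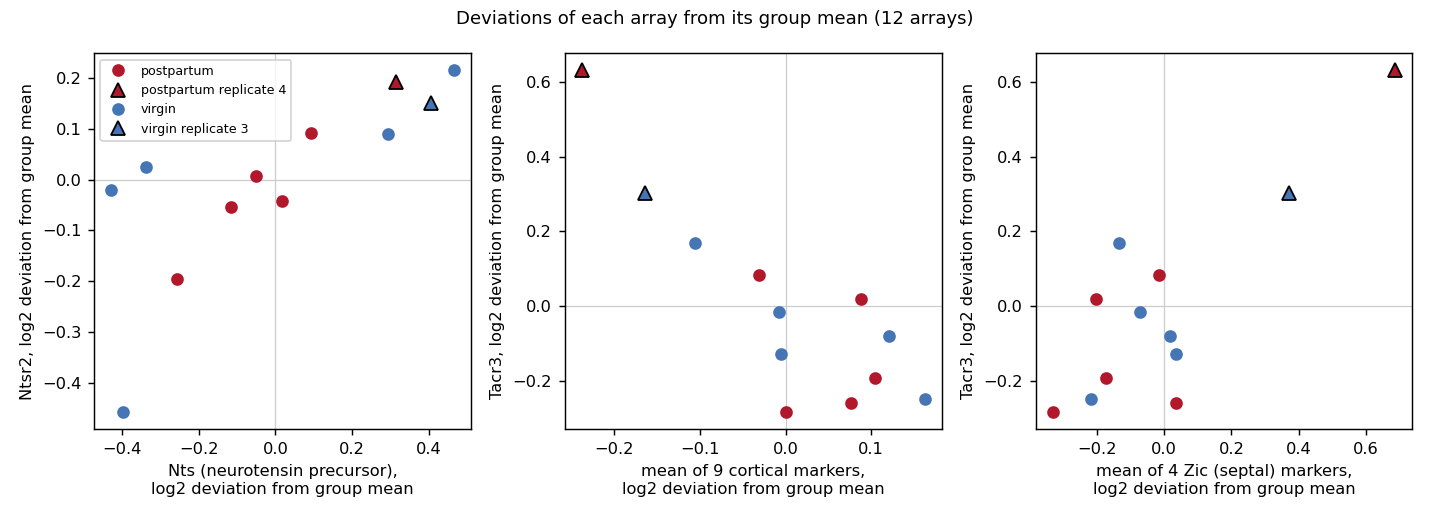
Deviation of each array from its group mean on the log2 scale: Ntsr2 against Nts (left), Tacr3 against the mean of 9 cortical markers (middle) and Tacr3 against the mean of 4 Zic genes (right), for postpartum arrays (red) and virgin arrays (blue), triangles as above. Pearson's r is 0.76, -0.86 and 0.83, and without the arrays drawn as triangles it is 0.71, -0.61 and 0.23.

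The genes whose log2 values followed Npy1r most closely, group means subtracted, were Fkbp3 (r = 0.92), Dtx4 (0.91), Akt1 (0.89), Tatdn2 (0.88) and Rab11b (0.88), out of 11089 annotated genes of above-median mean over 12 arrays. Being the highest of so many, these r values are a description. Without virgin replicate 3 they were 0.79, 0.67, 0.82, 0.64 and 0.61 in the same order. None of the 5 genes differed between groups at p under 0.01. Among the arrays, virgin replicate 3 had the highest value of its group for 5 of the 10 receptors and postpartum replicate 4 for 5 of its own.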

How the data were processed

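RNA from 6 postpartum and 6 virgin NAC punches was hybridised to Mouse Gene 2.0 ST arrays. The authors deposited linear PLIER intensities, normalized between arrays, and the submitters' processing notes name Affymetrix Power Tools 1.12.0. The array table has one such value per probeset and array, and no other value column. The log2 of each intensity was taken after setting values under 1 to 1, which slightly understates the fold change of the dimmest probesets. Groups were compared with limma 3.58.1 (R 4.3.3) on all 41345 probesets, with Benjamini and Hochberg adjustment. The methods do not name the scale. Genes were taken from the platform annotation where it gives 1 symbol (23521 probesets, 22180 genes), each by its brightest probeset. Exact permutation tests were two-sided over all splits of the 12 arrays, with a smallest p of 0.00216, and tested on simulated data first. Named genes are the 10 receptors, up to 4 of smallest p per list, the ligands and the 5 genes most like Npy1r. The receptors, lists and tests were chosen with earlier results of these data known. Sample groups are from the labels, and each array is 1 mouse. Alternatives are scale, floor, scaling between arrays, filter, variance model, array weights, replicate block, each array left out, the probeset of a gene and marker covariates, with the 2 arrays of highest septal score left out added after the values were seen. The 12 arrays limit the precision.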

Additional observations from a re-analysis of the deposited data

Results flagged for a closer look

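Values of 1 array far from the others of its group were sought for 70 genes in both groups, 140 groups of values in all. Chance flags about 1 group in 20, and 17 were found, 4 of them among the 20 groups of the receptors. Npy1r read 912.07 on virgin replicate 3, against 624 to 701 on the other virgin arrays. Sstr2 read 957.79 on virgin replicate 6 and Cckbr 1103.14 on postpartum replicate 5. Tacr3 read 350.98 on postpartum replicate 4, against 186 to 240.1 on the other postpartum arrays.

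On postpartum replicate 4, Zic1 read 1979.76, Zic2 1138.97, Zic5 315.53, Pvalb 231.86 and Tbr1 890.94. On virgin replicate 3, Gnai3 read 570.96 and Cpd 1594.04. On postpartum replicate 2, C1qb read 1449.78 and C1qa 458.53, and on postpartum replicate 6 Pecam1 read 359.98. Pcsk1 read 888.67 on postpartum replicate 1 and 655.74 on virgin replicate 1, and Cux2 read 373.89 on virgin replicate 5.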

How the results depend on the processing

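The number of receptors at p under 0.01 was 0 as reported, and 1 (Npy1r) with a variance trend (log2 fold change 0.24), with array weights (0.26) and without the 2 arrays of highest septal score (0.33). It was 0 to 1 with single arrays left out, and Npy1r then ranged from 0.20 to 0.31. At p under 0.03 it was 1, 2 with the cortical score as covariate (Npy1r and Tacr3), 0 with the medium spiny neuron score as covariate, where Npy1r had a limma p of 0.0505, and 0 to 1 with single arrays left out (0 without postpartum replicate 6, virgin replicate 1 or virgin replicate 5). With single arrays left out Npy2r ranged from 0.10 to 0.31, Sstr2 from 0.042 to 0.15, Tacr1 from -0.092 to -0.012 and Crhr1 from -0.076 to -0.0049. Small fold changes turned their sign, with the cause not tested. With the cortical score as covariate Sstr1 was -0.055 and Tacr1 0.026. With the medium spiny neuron score Sstr1 was -0.14, Cckbr -0.0034, Tacr1 0.00021 and Crhr1 0.040. Without the 2 arrays of highest septal score Tacr3 was -0.013. With single arrays left out Sstr1 was -0.049 to 0.083, Cckbr -0.020 to 0.074, Tacr3 -0.073 to 0.11, Ntsr2 -0.012 to 0.12, and Npy1r minus Npy2r -0.048 to 0.14. The paper describes collecting brains of both groups on one day, with alternating dissections, but the labels name no days or pairs. Same-numbered arrays had correlations of -0.21 to 0.2 (2 of 6 above 0.1). Of the 6 postpartum arrays, 2 had their own number as the closest virgin array. This does not settle whether replicate numbers pair the samples. With the replicate number as a block 326 genes passed p under 0.01 against 621, and Npy1r minus Npy5r was 0.35 with an adjusted p of 0.156, its raw p of 0.0313 being the smallest possible. The 6 arrays per group, and PLIER values without their errors, limit what small differences can show.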
